A study of Mus musculus with 6 samples.

Results

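The 63 genes described here encode the proteins that store neurotransmitter in synaptic vesicles and fuse those vesicles with the plasma membrane, with their relatives on other membranes of the cell. They were taken by symbol from the annotation of the array, as the synaptotagmins, syntaxins, vesicle-associated membrane proteins, synapsins, SV2 proteins, complexins, RIM proteins and syntaxin-binding proteins, together with Snap25, Syp, Sypl, Unc13a, Unc13b, Unc13c, Bsn and Pclo. Each gene had 1 probe set, so the 63 genes stood for 63 of 22206 probe sets tested. RefSeq lists 68 mouse genes under the same symbols, and the other 5 were not analysed here. The symbols alone set the membership, and earlier results of these data were known when the families were picked.

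Olfactory bulbs (OBs) of 3 Tg2576 and 3 WT mice were set side by side on mouse Clarion S arrays of Affymetrix, 1 for each animal. Tg2576 mice carry human amyloid precursor protein with the Swedish double mutation, under the hamster prion promoter, and serve as a model of Alzheimer's disease. The WT mice did not carry the transgene. The study calls them littermates in its abstract and methods, and controls of the background strain in its introduction. All animals were females of 18 months, and whole bulbs were processed. Expression is given as log2 values that the authors had brought to a common scale with RMA, the robust multi-array average, so 1 unit is a fold of 2. Every difference below is Tg2576 minus WT.

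A synaptic vesicle fuses when a SNARE protein of the vesicle zips together with SNARE proteins of the target membrane into a tight helical bundle. In neurons the vesicle side is synaptobrevin (Vamp1 or Vamp2) and the membrane side is a syntaxin with SNAP-25. Synaptotagmins sense the calcium that starts fusion, complexins hold the bundle ready, Munc13 and RIM proteins prime and dock the vesicle at the active zone, and synapsins tether the reserve of vesicles. In the OB these proteins serve the axon terminals of olfactory sensory neurons in the glomeruli as well as the dendrites of mitral, tufted and granule cells, which release transmitter onto each other.

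The 6 arrays had medians of 8.18 to 8.22 and correlated at 0.992 to 0.995 (Pearson's r over all probe sets). Neuronal markers of the OB were measured on every array, Gad1, the gene of the GABA-synthesizing enzyme, between 12.39 and 12.51 and Cdhr1, a cadherin gene of mitral and tufted cells, between 11.88 and 12.06. Several marker lists differed between the genotypes. The mean of 18 genes of olfactory sensory neurons lay 0.21 to 0.47 above the WT mean in Tg2576 arrays, against -0.046 to 0.088 in WT arrays, and that of 18 non-neuronal genes of the olfactory mucosa at 1.39, -0.20 and 1.34 in Tg2576 replicates 1 to 3, against -0.24 to 0.36 in WT arrays. The mean of 8 genes of mitral and tufted cells was 0.17 to 0.25 in Tg2576 arrays, against -0.038 to 0.068 in WT arrays, that of 7 genes of astrocytes 0.18 to 0.27 in Tg2576, against -0.032 to 0.022 in WT arrays, and that of 5 genes of endothelium 0.20 to 0.30 in Tg2576, against -0.056 to 0.047 in WT arrays. For 6 genes of oligodendrocytes the Tg2576 arrays lay at 0.12 to 0.38 and the WT arrays at -0.14 to 0.072, for 6 genes of microglia at 0.078 to 0.12 in Tg2576 and -0.047 to 0.093 in WT arrays, and for 15 genes of bulb interneurons at -0.044 to 0.016 in Tg2576 and -0.027 to 0.030 in WT arrays. Dim genes, with a mean under the median negative control, numbered 4 in the mucosa list and 2 each in the sensory and mitral lists. The part of these cell types in the values below was not tested. In whole bulbs fewer cells of a type and less RNA per cell cannot be told apart.

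None of the 63 genes passed the thresholds of the study, an unadjusted p under 0.01, stated for the arrays in its methods, with a fold over 1.3 or under 0.7, which for the arrays is given only in the name of a supplementary sheet (limma, a linear model that moderates each gene's variance by that of all genes). Over all probe sets tested 0.797% passed, 0.698% as higher and 0.0991% as lower in Tg2576 OBs. At a p under 0.01 alone none of the 63 genes was called, against 2.11% of all probe sets. At an unadjusted p under 0.05, 3 genes were higher in Tg2576 OBs, which were Vamp1, Sv2b and Syt9, and 2 were lower, Stx12 and Stx4a. These were 4.76% and 3.17% of the 63 genes, against 4.57% higher and 3.97% lower over all probe sets, so the genes were called about as often as any probe set. After Benjamini-Hochberg adjustment over all probe sets none was called (smallest adjusted p = 0.529 with limma), nor was any of the 22206 probe sets. Limma-trend, which lets the variance follow the level, was run with robust moderation throughout. With it, adjustment called 9 of all probe sets and none of the 63 genes. It had 8 of the 63 genes at an unadjusted p under 0.05, a larger share than the 8.66% of all probe sets. These were Vamp1, Sv2b, Syt9, Syt11 and Pclo as higher and Stx12, Stx4a and Snap25 as lower. Arrays of the genotypes did not overlap in 11 of the 63 genes (17.5%), 6 higher and 5 lower in Tg2576 OBs, against 14.1% of all probe sets, 7.03% in each direction.

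**Figure D1:**
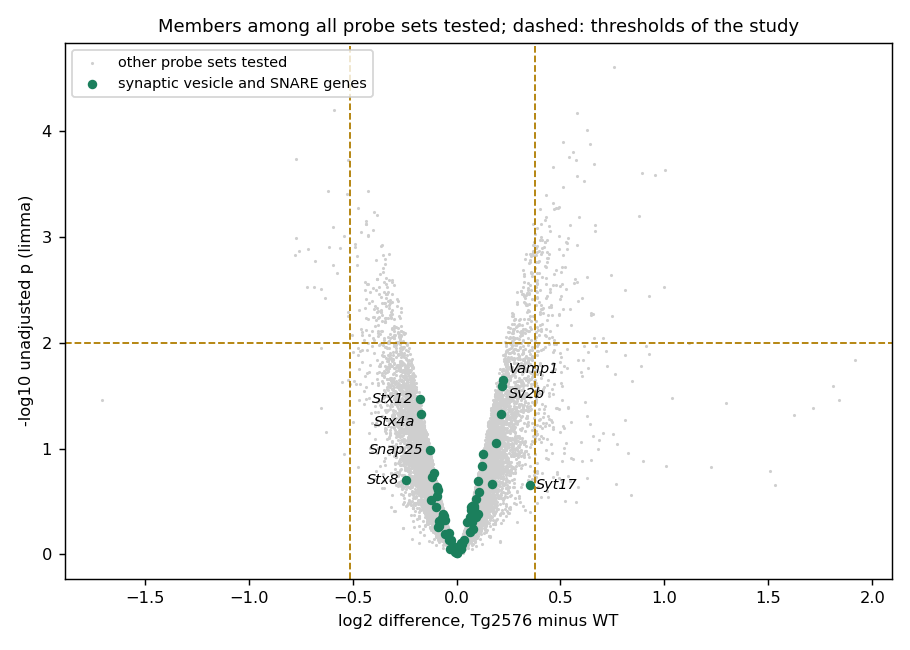
Log2 difference (Tg2576 minus WT, horizontal) against -log10 of the unadjusted p of limma (vertical) for 63 synaptic vesicle and SNARE genes (green) and all other probe sets tested (grey), 3 arrays per genotype. Dashed lines are the thresholds of the study, and none of the 63 genes lies beyond both.

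The median log2 difference of the 63 genes was 0.0033, against -0.0049 over all probe sets, and 32 genes lay above 0 and 31 below. The median absolute difference was 0.075, against 0.081 over all probe sets and 0.074 over those with a mean above the median negative control. The 95% confidence interval stayed within a 1.3-fold change in either direction for 52 of the 63 genes (82.5%), against 70.3% of all probe sets. With only means above the median negative control, the shares were 81.7% of 60 genes and 76.7% of probe sets. The 11 genes whose interval reached beyond were Syt8, Syt9, Syt11, Syt17, Vamp1, Vamp5, Vamp8, Stx8, Stx17, Sv2b and Sv2c. Syt2, Cplx4 and Stx11 lay under the median of the negative controls on all 6 arrays and the other 60 lay above it on all 6.

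**Figure D2:**
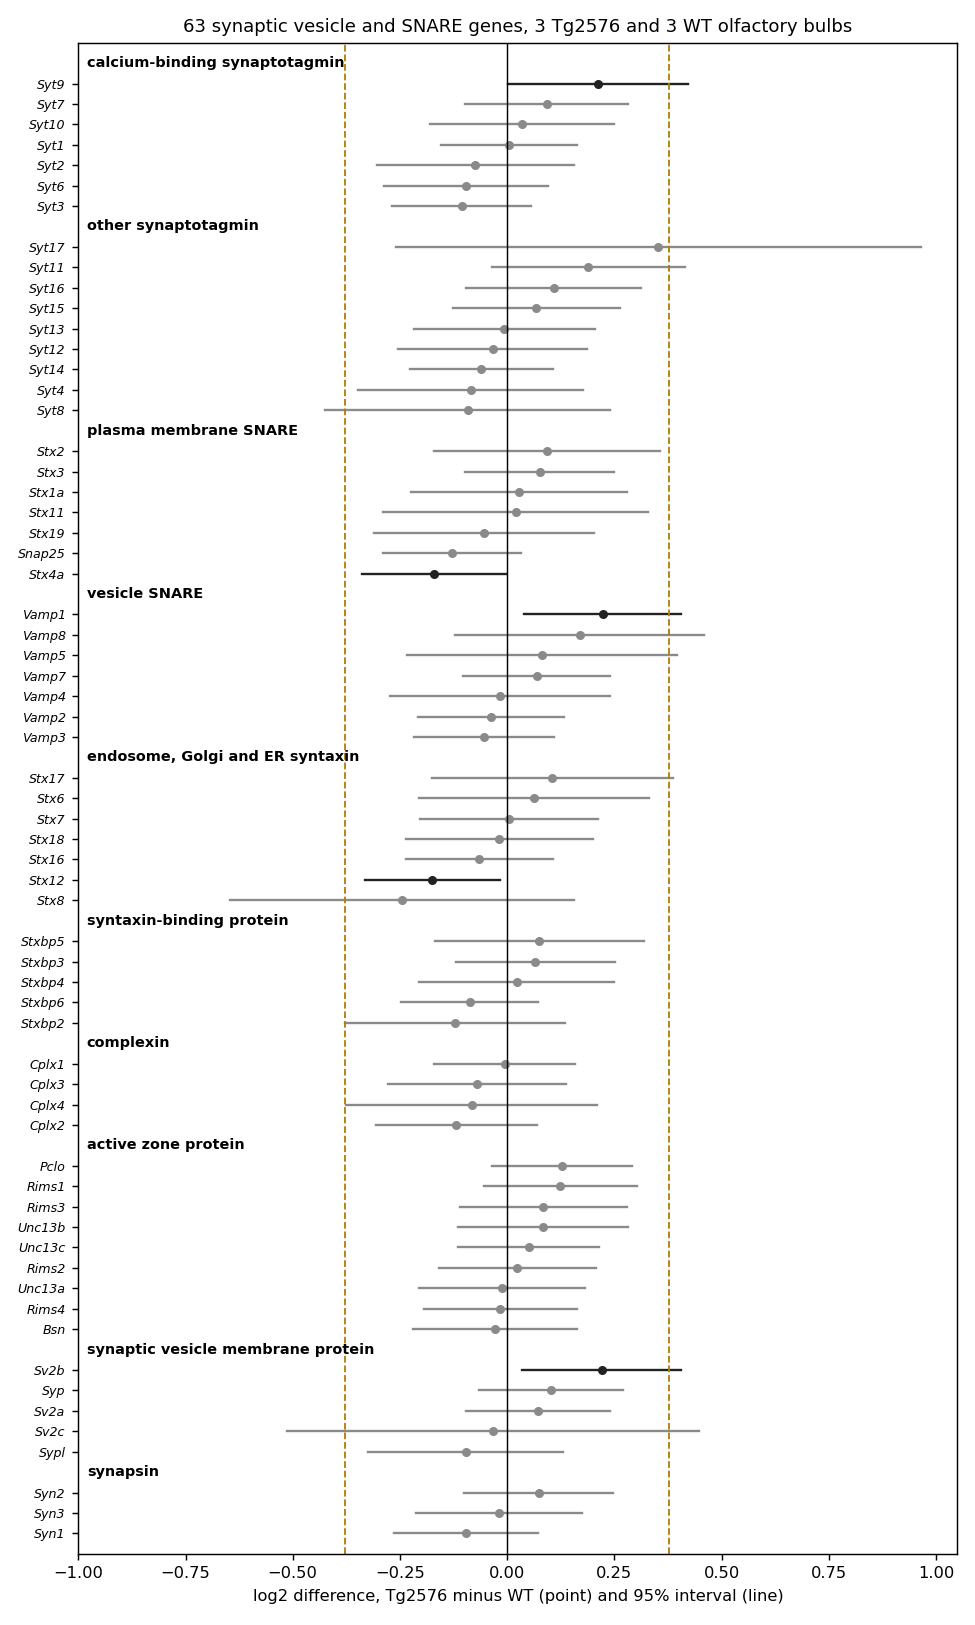
Log2 difference (points) and 95% confidence interval (lines) of each of the 63 genes, in blocks of role, with the 5 genes at an unadjusted p under 0.05 in black and the 1.3-fold limits dashed. Points of every block fall on both sides of 0 except those of the 4 complexin genes, which all lie under it. Of these, Cplx4 lay under the median of the negative controls on all 6 arrays, and Cplx1 changed sign in other settings.

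Among the SNARE genes of the plasma membrane, none of 7 passed the thresholds. Snap25, which encodes the SNARE protein that lends 2 helices to the bundle, was at 12.87, 12.88 and 12.85 in Tg2576 OBs, against 13.04, 12.97 and 12.98 in WT OBs. All 3 Tg2576 arrays lay below all 3 WT arrays, with an SD of 0.014 in Tg2576 and 0.035 in WT OBs. The log2 difference was -0.13 (SE 0.071, 95% confidence interval -0.29 to 0.03, limma adjusted p = 0.663). With limma-trend its unadjusted p was 0.0109, against 0.103 with limma. Stx1a, a neuronal syntaxin and partner of SNAP-25, was at 8.29, 8.46 and 8.31 in Tg2576 OBs, against 8.18, 8.25 and 8.54 in WT OBs, and the genotypes overlapped. Its difference of 0.028 (-0.22 to 0.28) changed sign when single arrays were left out. Stx4a, a syntaxin gene of the plasma membrane of many cell types, was at 10.26, 10.34 and 10.32 in Tg2576 OBs, against 10.50, 10.42 and 10.51 in WT OBs. The arrays did not overlap, and the difference was -0.17 (SE 0.073, adjusted p = 0.579 with limma). Stx3, which serves polarized membranes and ribbon synapses, lay at 8.38 to 8.40 in Tg2576 OBs and at 8.22 to 8.36 in WT OBs, again without overlap, with a difference of 0.076. Stx2, Stx11 and Stx19 differed by 0.093, 0.020 and -0.054.

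Of the 7 VAMP genes, whose products sit on vesicles, Vamp1 had the smallest p of all 63 genes. This synaptobrevin gene was at 10.65, 10.72 and 10.59 in Tg2576 OBs, against 10.49, 10.47 and 10.34 in WT OBs. Every Tg2576 array was above every WT array, and the log2 difference was 0.22 (SE 0.080, 95% confidence interval 0.04 to 0.41, adjusted p = 0.529 with limma), a fold of 1.17. Its relative Vamp2, the synaptobrevin of most brain synapses, was at 11.15, 11.12 and 11.04 in Tg2576 OBs, against 11.15, 11.09 and 11.18 in WT OBs. The genotypes overlapped, with a difference of -0.038 (-0.21 to 0.13), and the gap between Vamp1 and Vamp2 was not tested. The VAMP genes of endosomes, lysosomes and secretory granules differed by -0.054 (Vamp3), -0.017 (Vamp4), 0.069 (Vamp7) and 0.17 (Vamp8), and Vamp5, known from muscle, by 0.081. Vamp8 lay at 9.54 to 9.76 in Tg2576 OBs and at 9.63, 9.55 and 9.18 in WT OBs, so that WT replicate 3 alone stood below the rest.

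Calcium sensors were represented by 7 synaptotagmins that bind calcium. Syt1, the sensor of fast release in forebrain neurons, varied least of all 63 genes, at 13.37, 13.35 and 13.36 in Tg2576 OBs, against 13.36, 13.37 and 13.34 in WT OBs. The 6 arrays spanned 0.032 on the log2 scale, against a median span of 0.26 for the 63 genes and 0.33 for all probe sets, and the difference was 0.0033 (-0.16 to 0.16). Syt9, a fast sensor related to Syt1 and Syt2, was at 10.24, 10.29 and 10.16 in Tg2576 OBs, against 10.12, 9.86 and 10.08 in WT OBs. Its arrays did not overlap, with a gap set by Tg2576 replicate 3 and WT replicate 1, and the log2 difference was 0.21 (SE 0.091, adjusted p = 0.579 with limma). Syt3 was at 9.84, 9.76 and 9.82 in Tg2576 OBs, against 9.91, 9.92 and 9.91 in WT OBs, lower without overlap, and differed by -0.11 (SE 0.071). Syt7, the sensor of asynchronous release and facilitation, differed by 0.092 (-0.10 to 0.28), Syt6 by -0.096 and Syt10, which in OB neurons controls the secretion of IGF-1, by 0.034. Syt2, on the dim side of the negative controls, differed by -0.074.

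The other 9 synaptotagmins, which bind calcium weakly or not at all, held the widest spread. Syt17 was at 9.30, 10.26 and 10.15 in Tg2576 OBs, against 9.45, 9.23 and 9.97 in WT OBs. High and low arrays occurred in both genotypes, over a span of 1.03, the largest of the 63 genes. The log2 difference of 0.35 (95% confidence interval -0.26 to 0.96, adjusted p = 0.778 with limma) was the largest of the 63 as well, and was 0.66 without Tg2576 replicate 1 (unadjusted p = 0.0110 with limma) and 0.17 without Tg2576 replicate 2. Syt11, a synaptotagmin of vesicle recycling and endocytosis, was at 11.79, 11.61 and 11.91 in Tg2576 OBs, against 11.62, 11.47 and 11.65 in WT OBs. Tg2576 replicate 2 lay among the WT arrays, and the difference was 0.19 (SE 0.099, adjusted p = 0.643 with limma). Syt4, Syt8, Syt12, Syt13, Syt14, Syt15 and Syt16 differed by -0.091 to 0.11.

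The syntaxins of endosomes, the Golgi apparatus and the endoplasmic reticulum included 1 gene at an unadjusted p under 0.05, Stx12. This gene, also known as syntaxin 13 of recycling endosomes, was at 8.61, 8.62 and 8.62 in Tg2576 OBs, against 8.79, 8.78 and 8.80 in WT OBs. The SD was 0.0086 in Tg2576 and 0.010 in WT OBs, and the lowest WT array lay well above the highest Tg2576 array. The difference was -0.17 (SE 0.069, 95% confidence interval -0.33 to -0.02), a fold of 0.886, with an adjusted p of 0.557 with limma, which draws so small a variance toward that of the other genes. Stx8, a late endosomal syntaxin, was at 7.30, 6.99 and 7.08 in Tg2576 OBs, against 7.68, 7.46 and 6.96 in WT OBs. WT replicate 3 was the lowest of all 6 arrays, near the negative control median of 6.91 on that array. The difference of -0.24 (-0.65 to 0.16) became -0.45 without that array (unadjusted p = 0.00817 with limma), still short of the lower fold threshold. Stx6, Stx7, Stx16, Stx17 and Stx18 differed by -0.064 to 0.11.

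**Figure D3:**
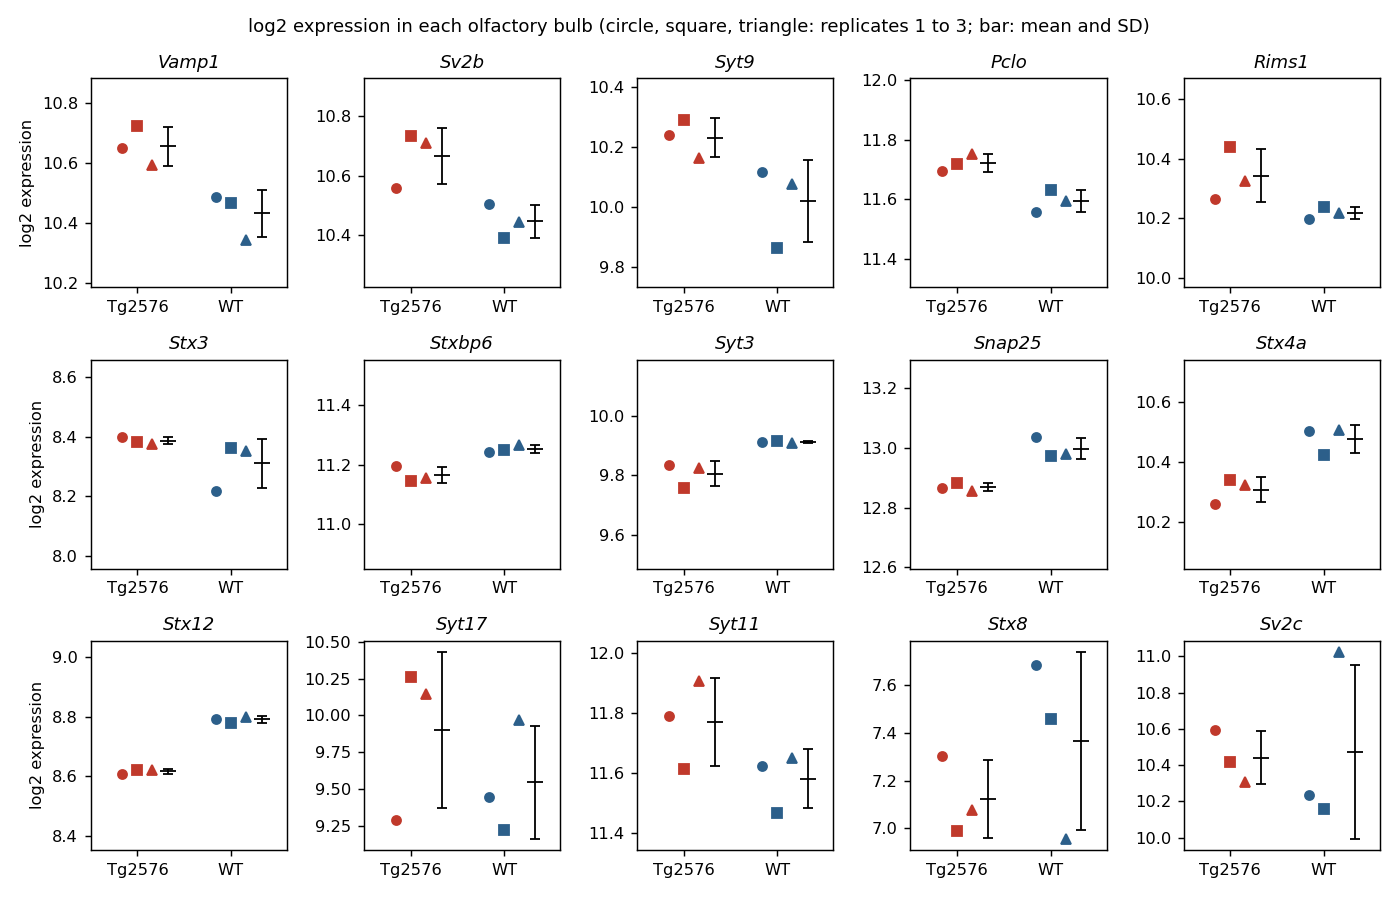
Log2 expression in each bulb (vertical, own scale per gene) for the 11 genes whose arrays did not overlap between genotypes and for Syt17, Syt11, Stx8 and Sv2c, with Tg2576 left of WT, mean and SD (n = 3 each). Stx12 separates by more than its spread, whereas Syt17 and Sv2c spread within the genotypes.

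Genes of the active zone, the site of release, differed by -0.029 to 0.13, and the interval of all 9 stayed within a 1.3-fold change. The same held for all plasma membrane SNARE, syntaxin-binding, complexin and synapsin genes. Pclo, the gene of the scaffold Piccolo, was at 11.69, 11.72 and 11.75 in Tg2576 OBs, against 11.56, 11.63 and 11.59 in WT OBs. Its arrays did not overlap, and the log2 difference was 0.13 (SE 0.071, adjusted p = 0.673 with limma). Bsn, which encodes the partner scaffold Bassoon, lay at 9.47 to 9.65 in Tg2576 OBs and at 9.50 to 9.64 in WT OBs, with a difference of -0.029 (-0.22 to 0.16). Rims1, a RIM gene that ties vesicles to calcium channels, was at 10.26, 10.44 and 10.33 in Tg2576 OBs, against 10.20, 10.24 and 10.22 in WT OBs. Again the arrays did not overlap, and the difference was 0.12 (SE 0.078, adjusted p = 0.704 with limma). Rims2, Rims3 and Rims4 differed by 0.023, 0.084 and -0.016. Unc13a, which encodes the priming factor Munc13-1, lay at 10.51 to 10.63 in Tg2576 OBs and at 10.50 to 10.69 in WT OBs, a difference of -0.013 (-0.21 to 0.18), and Unc13b and Unc13c differed by 0.083 and 0.051.

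Complexins and syntaxin-binding proteins regulate the assembled or free SNAREs. The differences of the 4 complexin genes were -0.0061 for Cplx1, -0.12 for Cplx2, -0.071 for Cplx3 and -0.083 for Cplx4, and none passed the thresholds. Cplx2 was at 10.35, 10.36 and 10.30 in Tg2576 OBs, against 10.35, 10.46 and 10.56 in WT OBs, so that WT replicate 1 lay among the Tg2576 arrays. Cplx1 lay at 11.02 to 11.12 in Tg2576 OBs and at 11.07 on all 3 WT arrays. Cplx4 lay under the median of the negative controls on all 6 arrays. Of the syntaxin-binding proteins, Stxbp2, a partner of syntaxins in secretory blood and epithelial cells, was at 9.98, 9.86 and 9.80 in Tg2576 OBs, against 10.18, 9.78 and 10.04 in WT OBs. The genotypes overlapped, and the difference was -0.12 (-0.38 to 0.13). Stxbp6, the gene of amisyn, which binds syntaxin without driving fusion, lay at 11.14 to 11.19 in Tg2576 OBs, below 11.24 to 11.27 in WT OBs, and differed by -0.088 (SE 0.070). Stxbp3, Stxbp4 and Stxbp5 differed by 0.066, 0.022 and 0.075.

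On the vesicle itself, Sv2b and Sv2c of the same family gave contrasting patterns. Sv2b, an SV2 glycoprotein gene of glutamatergic neurons, was at 10.56, 10.73 and 10.71 in Tg2576 OBs, against 10.50, 10.39 and 10.44 in WT OBs. All Tg2576 arrays were above all WT arrays, with a log2 difference of 0.22 (SE 0.082, 95% confidence interval 0.03 to 0.41, adjusted p = 0.533 with limma). The list of mitral and tufted cell markers was also above its WT mean in each Tg2576 array, by 0.17, 0.25 and 0.20. The lists of olfactory sensory neurons, astrocytes, oligodendrocytes, microglia and endothelium were so too, those of bulb interneurons and non-neuronal mucosa not. Whether Sv2b followed any of these lists was not tested. Sv2c was at 10.60, 10.42 and 10.31 in Tg2576 OBs, against 10.23, 10.16 and 11.02 in WT OBs. WT replicate 3 stood apart from the other 5 arrays, and the difference was -0.033 (-0.51 to 0.45). Sv2a, present at nearly all synapses and the target of levetiracetam, differed by 0.071 (-0.10 to 0.24). Syp, the gene of synaptophysin, was at 12.77, 12.77 and 12.67 in Tg2576 OBs, against 12.61, 12.63 and 12.67 in WT OBs, and differed by 0.10 (-0.07 to 0.27). Its lowest Tg2576 array and its highest WT array met, while Sypl, a relative outside neurons, differed by -0.097.

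**Figure D4:**
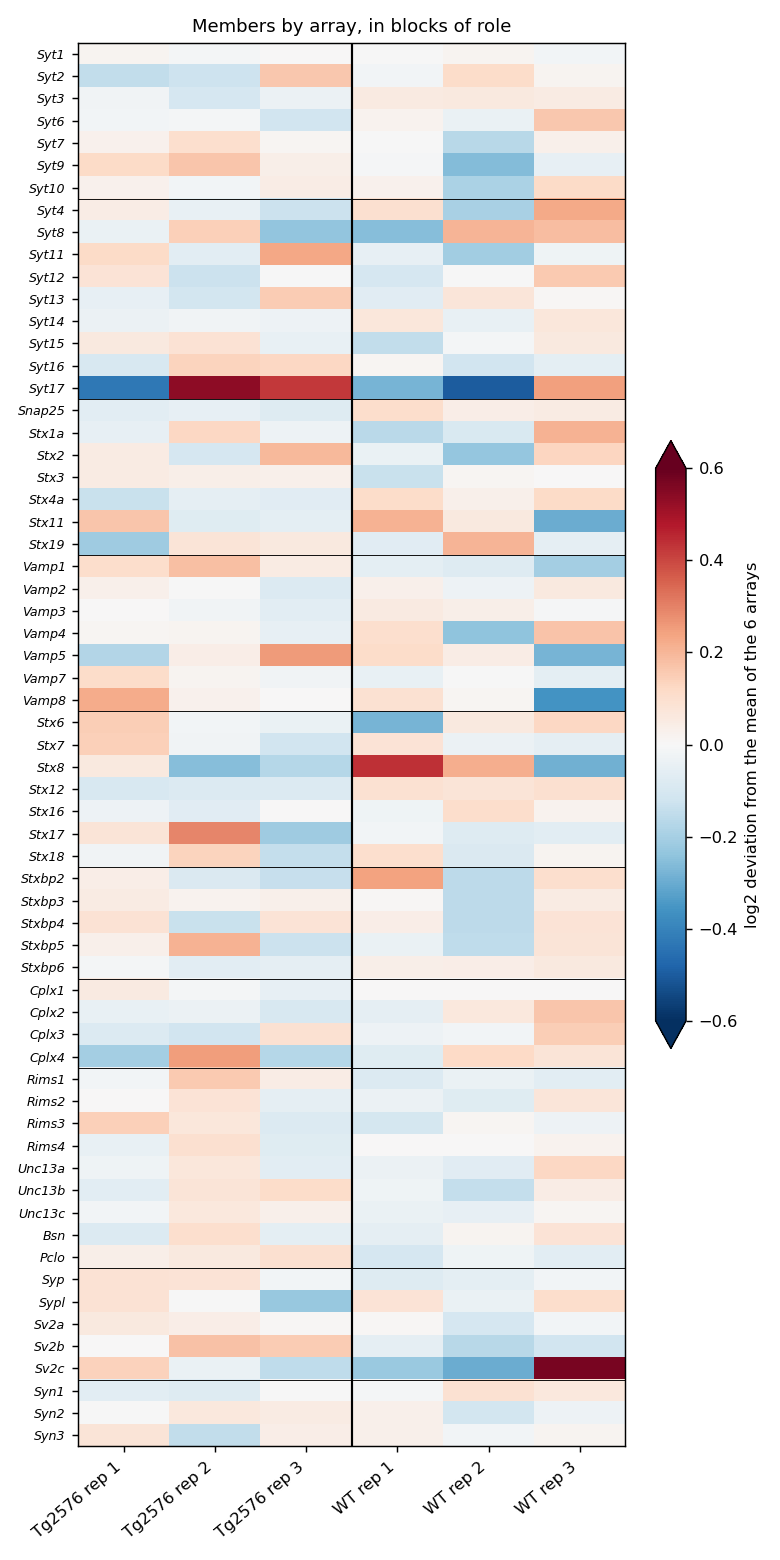
Deviation of each gene (rows) on each array (columns, Tg2576 left of WT) from its mean over the 6 arrays, on the log2 scale, in blocks from calcium-binding synaptotagmins at the top to synapsins at the bottom. Syt17 and Sv2c carry the deepest colours, on arrays of both genotypes for Syt17 and on WT replicate 3 for Sv2c, and Syt1 has almost none.

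The 3 synapsin genes differed by -0.096 (Syn1), 0.073 (Syn2) and -0.019 (Syn3). Syn1 was at 11.68, 11.66 and 11.73 in Tg2576 OBs, against 11.73, 11.83 and 11.80 in WT OBs. The highest Tg2576 array lay just above the lowest WT array, and the interval ran from -0.26 to 0.07. Syn2 lay at 12.22 to 12.29 in Tg2576 OBs and at 12.12 to 12.26 in WT OBs, with overlap, and an interval from -0.10 to 0.25.

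CREB1, the transcription factor that binds the cAMP response element, was among the proteins examined in the study, so the promoters of the 63 genes were searched for that element. RefSeq promoters (build GRCm38.p6, 250 bases before to 50 after each start) were at hand for 50 of the 63 genes. The full element TGACGTCA, which reads the same on both strands, was found in 2 of those 50 genes, Syn1 and Stxbp3, and in 2.03% of 27025 genes in the table. The 250 bases before each of these starts are shown because they hold that element in full. Both lie on the minus strand, Syn1 at chrX:20920919-20921168 and Stxbp3 at chr3:108840503-108840752, and are written 5′ to 3′ with the element in capitals, which begins 159 bases before the start in Syn1 and 108 in Stxbp3. Capitals near the 5′ end of Syn1 mark TTCAGCACC, the left part of the element bound by the neuronal repressor REST.
Syn1: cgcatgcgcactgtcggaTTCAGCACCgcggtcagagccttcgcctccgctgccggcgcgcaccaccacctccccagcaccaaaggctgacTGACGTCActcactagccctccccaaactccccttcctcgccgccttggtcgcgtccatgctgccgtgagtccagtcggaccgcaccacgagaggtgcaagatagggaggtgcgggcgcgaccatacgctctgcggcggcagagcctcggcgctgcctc
Stxbp3: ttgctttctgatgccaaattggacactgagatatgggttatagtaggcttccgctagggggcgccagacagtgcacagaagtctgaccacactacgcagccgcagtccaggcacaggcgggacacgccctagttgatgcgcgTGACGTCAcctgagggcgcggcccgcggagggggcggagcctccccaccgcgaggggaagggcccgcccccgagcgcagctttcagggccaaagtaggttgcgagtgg
Stxbp3, which binds syntaxins in many cell types, lay at 9.22 to 9.24 in Tg2576 OBs and at 9.20, 9.04 and 9.24 in WT OBs. Neither it nor Syn1 separated the genotypes. The shorter core TGACG, which the full element contains and which was searched on both strands, was found in 13 of the 65 promoters of these genes (20%), each of another gene, against 20.8% of the 32851 promoters in the table. Counted by gene, that was 26% of the 50, against 23.05% of the 27025 genes in the table. The log2 differences of these 13 genes ran from -0.17 to 0.081, 5 above 0 and 8 below, with a median of -0.013. TTCAGCACC was found on either strand in Syn1 and Unc13a of the 50 genes (4%), against 0.433% of all genes, and the sequence was searched after the promoter of Syn1 had been read. A match is a run of letters and not a measured binding site.

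Other genes of transmitter release were described from a list of 56, of which 54 were measured. None passed the thresholds, 1 was higher and 4 were lower at an unadjusted p under 0.05 (1.85% and 7.41% of the 54, against 4.57% and 3.97% of all probe sets). Slc17a7, the gene of the vesicular glutamate transporter VGLUT1, was at 12.23, 12.34 and 12.32 in Tg2576 OBs, against 12.002, 11.86 and 12.12 in WT OBs. All Tg2576 arrays were above all WT arrays, with a log2 difference of 0.30 (SE 0.090, adjusted p = 0.465 with limma), and its fold of 1.23 lay under the threshold of 1.3. Its unadjusted p of 0.00931 (limma) was under 0.01, so it was called by p alone, the only one of the 54 genes (1.85%, against 2.11% of all probe sets). It also belongs to the marker list of mitral and tufted cells. The lower genes were Doc2a at -0.23 (SE 0.074), Doc2b at -0.26 (SE 0.10), Napb at -0.27 (SE 0.096) and Bnip1 at -0.27 (SE 0.11). Doc2a and Doc2b encode calcium sensors of spontaneous and asynchronous release, Napb the β-SNAP that helps to take SNARE bundles apart, and Bnip1 a SNARE of the endoplasmic reticulum. Doc2a was at 7.96, 7.93 and 7.85 in Tg2576 OBs, against 8.12, 8.19 and 8.12 in WT OBs, and Napb at 11.57, 11.61 and 11.50 in Tg2576 OBs, against 11.78, 12.01 and 11.71 in WT OBs. Doc2b lay at 6.93 to 7.03 in Tg2576 OBs, near negative control medians of 6.78 to 6.84, and at 7.04 to 7.41 in WT OBs. These genes were lower without overlap, as were 9 of the 54 genes in all (16.7%, against 7.03% of all probe sets), and 1, Slc17a7, was higher without overlap (1.85%, against 7.03%). The median difference of the 54 genes was -0.012.

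**Figure D5:**
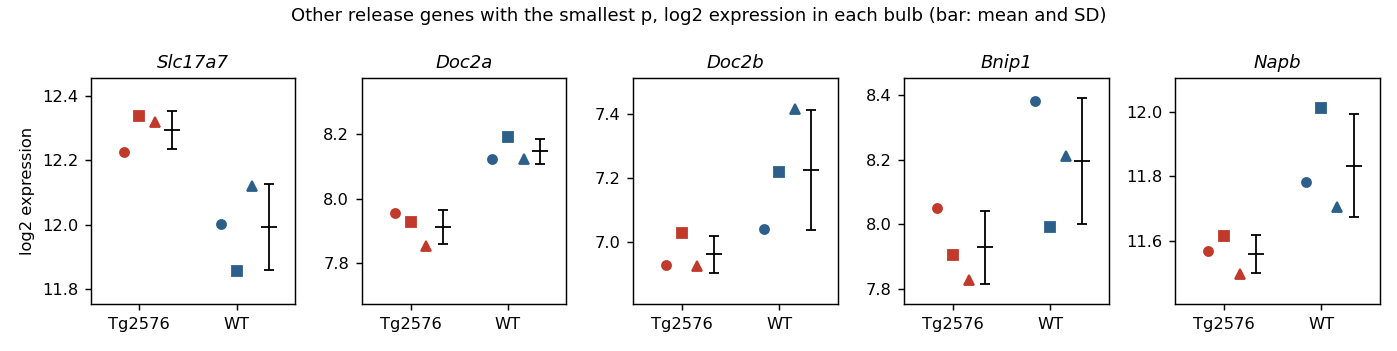
Log2 expression in each bulb (vertical, own scale per gene) of the 5 genes of the wider release list at an unadjusted p under 0.05, Tg2576 left of WT, with mean and SD (n = 3 each). Slc17a7 lies higher and Doc2a, Doc2b and Napb lower in Tg2576 OBs with no overlap, while the arrays of Bnip1 overlap.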

How the data were processed

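RNA of the OBs of 3 Tg2576 and 3 WT mice was hybridised to Affymetrix mouse Clarion S arrays, and genotype and replicate were read from the sample labels. The log2 values deposited by the authors came from RMA, a method of background correction, quantile normalization and probe summary (version not given in the sources used here). They were used as they stood, and 63 spike-in, 5222 negative and 1324 positive control sets were left out. The number of arrays limits the precision.

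Tg2576 was set against WT with limma 3.58.1 (R 4.3.3) over all 22206 probe sets, of which 19572 were paired with 1 gene symbol and 2634 with none. Unadjusted p-values were set against the thresholds of the study, and Benjamini-Hochberg adjustment ran over all probe sets. An exact permutation test of 3 against 3 cannot go below 0.1, so single genes were tested in limma only. The labels do not say whether the mice shared litters or days, and the fit does not account for either. The p-values set each genotype difference against the spread within genotypes of these 6 samples, moderated by that of all probe sets.

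The genes and lists were chosen with earlier results of these data known. Genes named in full were those with an unadjusted p under 0.05, the 5 highest and 5 lowest differences, and a core of release genes. Others were named to account for them. Alternatives tried were cyclic loess, limma-trend with robust moderation, quantile normalization, median centring, 2 filters on dim sets, array weights, a replicate block, each array left out, and other fold thresholds. The fit was tested on simulated data. Correlations of deviations between arrays of the same number were 0.036, -0.038 and -0.043, within the -0.13 to 0.15 of arrays of different numbers. No pairing by number was seen, but such correlations cannot show whether mice shared litters or days. Figures were drawn in Python 3.11.15 with matplotlib 3.10.9.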

Additional observations from a re-analysis of the deposited data

How the results depend on the processing

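None of the 63 genes passed both thresholds of the study under any alternative run, nor in the analysis as reported with an equal fold threshold in both directions or none. Combining these fold rules with each other alternative, which was chosen after seeing the data, called 2 genes (Vamp1 and Sv2b) with limma-trend and no fold threshold, against 2.56% of all probe sets. Without WT replicate 3 it called 1 gene, Stx8, with either rule, against 1.66% with no fold threshold and 1.13% with the equal one. The other combinations called 0. Of 25 genes named in full, 20 kept their direction in all settings. The others lay near 0 and turned when 1 array was left out, with ranges of -0.044 to 0.14 for Stx1a, -0.0043 to 0.012 for Syt1, -0.034 to 0.017 for Cplx1, -0.051 to 0.047 for Unc13a and -0.085 to 0.0057 for Bsn. Syt1 also turned to -0.011 after cyclic loess, -0.027 after quantile normalization and -0.0095 after median centring, and Cplx1 to 0.00011 with array weights. The causes were not tested.

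At an unadjusted p under 0.05, 5 genes were higher with limma-trend, in place of 3, and 3 were lower, in place of 2, against 5.03% and 3.63% of all probe sets. Leaving out 1 array gave 0 to 3 higher genes (0 without WT replicate 3) and 0 to 3 lower genes (0 without Tg2576 replicate 1, Tg2576 replicate 3 or WT replicate 1, 3 without WT replicate 2), against 3.44% to 4.99% higher and 2.97% to 4.99% lower among all probe sets. With a replicate block 1 gene, Vamp1, was higher and 0 were lower, against 4.22% and 3.51% of all probe sets. Vamp1 kept an unadjusted p under 0.05 in 11 of 14 settings, Sv2b in 9, Stx12 and Stx4a in 8 and Syt9 in 6. The median difference of the 63 genes ranged from -0.0096 to 0.032 when 1 array was left out, the highest without WT replicate 3. A gene with 1 probe set has no mean over sets, so that alternative was not run. The 95% interval reached 0.19 (median) to either side with 3 arrays per genotype. This width is not a limit of detection, as Stx12 and Stx4a had an unadjusted p under 0.05 (limma) at -0.17. Smaller differences, and some larger ones, could be missed.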
